A study of Homo sapiens with 16 samples.

Results

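Binding of DNMT3B and OCT1 was examined at the blocks of duplicated sequence on chromosome 1 that hold NBPF1 at 1p36 and NBPF9, NBPF10, PDE4DIP and NOTCH2NL at 1q21. The members were all peaks on chromosome 1 that started between 16.5 and 17.5 Mb or between 144 and 146 Mb of GRCh37/hg19, which gave 1439 of the 118439 peaks of the series. They were selected on results known from these same lists, because peaks stood close together there, so their number and height in the windows are a description and not a finding. MCF10CA1a is a human breast cancer line with invasive growth, obtained from xenografts of H-ras-transformed MCF10A breast epithelial cells. The cells received pterostilbene (PTS), a stilbenoid polyphenol, at 7 µM for 9 days, or ethanol as vehicle. DNA bound by DNMT3B or by OCT1 was sequenced from 3 replicates per antibody and treatment, with 1 input library for each, and no genotype or other agent differed between the groups. The deposited data were 4 peak lists that each pooled the 3 replicates, so no replicate error and no test between treatments could be computed, and the depth of the single libraries is unknown. The intervals below cover counting error only.

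The NBPF genes encode proteins built from repeated Olduvai (DUF1220) domains, and their copies spread over chromosome 1 by segmental duplication in the primate lineage. NOTCH2NL is a human-specific partial copy of NOTCH2 that acts on Notch signaling, PDE4DIP encodes the centrosomal and Golgi protein myomegalin, and SEC22B encodes a SNARE of vesicle traffic. CROCCP2, MST1P2 and ESPNP are pseudogenes related to CROCC (rootletin), MST1 (a hepatocyte growth factor-like protein) and ESPN (espin), and both windows hold genes of U1 small nuclear RNA. DNMT3B is a de novo DNA methyltransferase, and OCT1 (POU2F1) recognises the octamer element and takes part in transcription of small nuclear RNA genes.

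The reference sequence at the highest member peak, which lay in NBPF1, is shown first, since reads from such a site could come from several places. The 120 bases lie round the summit of the OCT1 peak of PTS-treated cells at chr1:16893623-16893742 on the forward strand. The letters round that summit were compared with its copies. Shown are the copy of highest identity over the whole peak, at chr1:145311890-145312009, and the copy with the strongest peak of its own, at chr1:145360659-145360778, both in the 1q21 window and on the reverse strand. Capitals mark bases that differ from the NBPF1 sequence, and each copy had 2 mismatches in the 120 bases. The strongest copy peak had a fold of 5.28 and lay beside its 120 bases, not on them.
NBPF1 summit: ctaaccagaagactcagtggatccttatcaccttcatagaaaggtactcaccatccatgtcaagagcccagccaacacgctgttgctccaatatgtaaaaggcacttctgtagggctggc
closest copy: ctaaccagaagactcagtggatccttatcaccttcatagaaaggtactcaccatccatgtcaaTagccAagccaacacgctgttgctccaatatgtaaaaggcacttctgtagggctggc
copy with the highest fold: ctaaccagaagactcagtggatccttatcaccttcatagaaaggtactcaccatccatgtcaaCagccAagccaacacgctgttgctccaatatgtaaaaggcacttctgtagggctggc

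The pair of sequences below shows the same for a peak assigned to the pseudogene MST1P2. The summit of the strongest OCT1 peak assigned to MST1P2 lies at chr1:16970879-16970998 on the forward strand. Its copy at MST1 lies at chr3:49727182-49727317 on the reverse strand and differs by 2 mismatches and 16 inserted bases, in capitals.
MST1P2 summit: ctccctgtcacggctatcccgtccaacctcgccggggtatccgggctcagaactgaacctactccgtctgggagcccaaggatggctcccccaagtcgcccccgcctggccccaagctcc
MST1 copy: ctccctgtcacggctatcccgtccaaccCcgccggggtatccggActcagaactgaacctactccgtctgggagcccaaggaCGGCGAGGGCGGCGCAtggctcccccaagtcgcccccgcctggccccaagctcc

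Each list had a single background value (3.20 pileup reads for DNMT3B and 3.499 for OCT1), and the deposited fold is the pileup at the summit over this background, each plus 1. No local input and no copy number entered the fold. The DNMT3B list of vehicle-treated cells held 347 member peaks of 15855, with a median fold of 4.53, and that of PTS-treated cells held 242 of 4326, with a median fold of 5.46. The OCT1 lists held 527 member peaks of 82187 for vehicle (median fold 4.22) and 323 of 16071 for PTS (median fold 5.06). The median folds of the whole lists were 3.81, 4.81, 3.56 and 4.18 in the same order. Median pileups of members ran from 18 to 21.9 reads, so that a single peak was set by few reads.

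A deposited P-value under 0.05 was used as the threshold, and this deposited column is a score derived from the −log10 p and not a probability. In the DNMT3B lists 77 of 347 member peaks passed with vehicle (22.2%, Wilson 95% interval 18.1 to 26.9) and 75 of 242 with PTS (31.0%, 25.5 to 37.1), beside 7.57% and 24.6% of all peaks of the lists. In the OCT1 lists 131 of 527 passed with vehicle (24.9%, 21.4 to 28.7) and 127 of 323 with PTS (39.3%, 34.1 to 44.7), beside 2.37% and 9.11% of all peaks. Member peaks just inside the threshold had folds of 5.95, 6.11, 5.56 and 5.72, and those just outside it had 5.72, 5.89, 5.33 and 5.50. At the edges of the windows, the first and last DNMT3B vehicle peaks inside had folds between 3.57 and 4.29 and the nearest outside had 3.57 to 4.76. The edge peaks of OCT1 vehicle had folds between 3.11 and 5.33 inside and between 3.11 and 4.45 outside.

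The strongest peak of all 4 lists in the windows was the same site in NBPF1. It spanned chr1:16891802-16893988 in DNMT3B vehicle, with a pileup of 62 reads and a fold of 15.0, and its PTS counterpart had 51.1 scaled reads and a fold of 12.4. For OCT1 the site had 64 reads and a fold of 14.4 with vehicle, and 84.1 scaled reads and a fold of 18.9 with PTS. DNMT3B pileup was therefore the lower with PTS (ratio of PTS over vehicle 0.825, exact interval 0.564 to 1.20). OCT1 pileup was the higher (1.31, 0.939 to 1.85). Both intervals included 1, so neither difference was beyond counting error. The summits fell in an exon of NBPF1 in DNMT3B vehicle and OCT1 PTS and in an intron in the other lists. The chromatin states listed there, taken by the authors from normal human mammary epithelial cells (HMEC), were repetitive (states 14 and 15) and transcriptional elongation (state 10).

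NBPF1 carried 34 and 24 DNMT3B peaks (vehicle and PTS) and 31 and 30 OCT1 peaks, of which 7, 7, 13 and 16 passed the threshold. Peaks covered 27.4% and 22.9% of its gene body for DNMT3B and 32.5% and 26.7% for OCT1. CROCCP2, next to it, had 57.3% and 52.5% of its body under DNMT3B peaks and 81.4% and 66.0% under OCT1 peaks. At ESPNP, OCT1 peaks covered 73.4% (vehicle) and 41.6% (PTS) of the body and DNMT3B peaks 19.1% and 2.76%. OCT1 cover was also the higher over the autosomes and chromosome X (0.834% and 0.161%, against 0.154% and 0.0451% for DNMT3B). Cover there was lower with PTS for both antibodies, so such gaps are not particular to single genes. The strongest peaks assigned to ESPNP lay between annotated genes at chr1:17053723-17055035, with folds of 7.15 and 7.63 for DNMT3B and 9.33 and 7.92 for OCT1. The highest folds of peaks assigned to MST1P2 were 7.86 (vehicle) and 6.54 (PTS) for DNMT3B and 8.45 and 7.04 for OCT1. MST1P2 had no DNMT3B peak in its body with PTS, and 21.97% of the body was covered with vehicle. For OCT1 it had 67.2% with vehicle and 16.0% with PTS. CROCCP3 held no peak in any list.

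**Figure D1:**
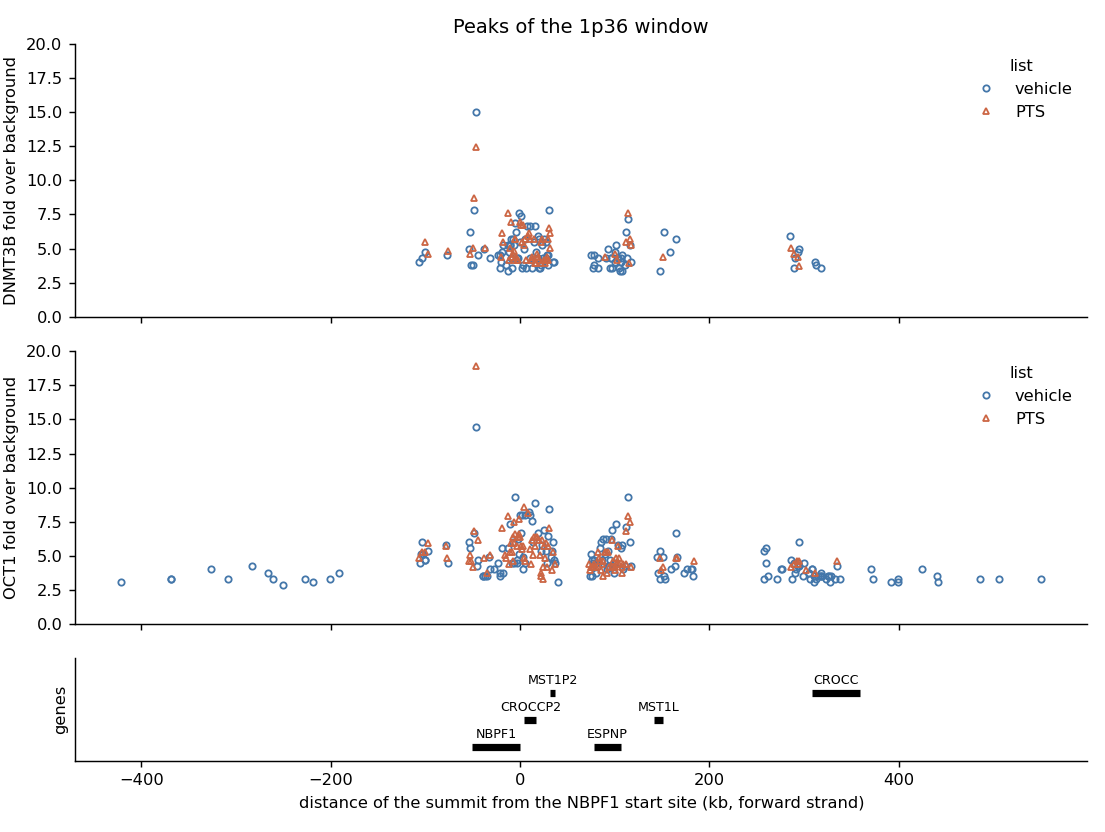
Fold over background (y axis) of each peak in the 1p36 window against the distance of its summit from the NBPF1 start site in kb (x axis), for DNMT3B (top) and OCT1 (middle), with vehicle as circles, PTS as triangles and genes below. The NBPF1 site stands above all other peaks at folds of 12.4 to 18.9.

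In the 1q21 window PDE4DIP took most of the peaks of 3 lists and 155 of 350 in OCT1 vehicle. The deposited annotation assigned to it 169 and 138 DNMT3B peaks (48 and 48 past the threshold) and 155 and 143 OCT1 peaks (64 and 69 past it), for vehicle and PTS. Peaks were uneven along the gene, and the bounds that follow were chosen after the values were seen. In the 125 kb at its far end (chr1:144851186-144976185), 1 of 52 and 0 of 20 DNMT3B peaks and 4 of 53 and 4 of 41 OCT1 peaks passed, with median folds between 4.05 and 4.62. From there to 50 kb before its start site (chr1:144976186-145126185), 47 of 112 (42.0%) and 48 of 117 (41.0%) DNMT3B peaks passed, as did 58 of 97 (59.8%) and 64 of 98 (65.3%) OCT1 peaks, with median folds between 5.67 and 6.38. Peaks of both antibodies and treatments were thus higher in the stretch near the start site.

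That stretch includes SEC22B, whose peaks the deposited annotation gives to PDE4DIP. Summits in SEC22B numbered 20 and 15 for DNMT3B and 11 and 15 for OCT1, and all were listed as PDE4DIP. The strongest OCT1 vehicle peak there, chr1:145113432-145113888, fell in an exon of SEC22B. The folds at this site were 8.34 (vehicle) and 8.72 (PTS) for DNMT3B and 11.1 and 9.46 for OCT1. In DNMT3B vehicle a peak in another exon, chr1:145115435-145116361, was higher (8.57), and in OCT1 PTS an intron peak, chr1:145110571-145111803, was as high (9.46). In the windows as a whole, peaks wholly outside the body of the assigned gene made up 116 of 347 and 81 of 242 DNMT3B peaks and 177 of 527 and 104 of 323 OCT1 peaks. Most summits lay in introns (221 and 161 for DNMT3B, 312 and 204 for OCT1).

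The intervals of PDE4DIP, SEC22B and NOTCH2NL on hg19 each receive several genes that RefSeq places at separate loci on GRCh38. They were 2 for PDE4DIP (with PDE4DIPP2), 4 for SEC22B (with SEC22B2P, SEC22B3P and SEC22B4P) and 4 for NOTCH2NL (NOTCH2NLA, NOTCH2NLB, NOTCH2NLC and NOTCH2NLR). These 3 intervals held 45 of the 61 member peaks of DNMT3B vehicle past the threshold in the 1q21 window (73.8%), 48 of 63 with PTS (76.2%), 65 of 88 of OCT1 vehicle (73.9%) and 66 of 90 with PTS (73.3%). Of all 1q21 member peaks, with or without the threshold, they held 70.5%, 77.0%, 48.6% and 71.5%. Where reads from the separate loci were placed on hg19 was not tested. Binding and the number of loci cannot be told apart in these lists.

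**Figure D2:**
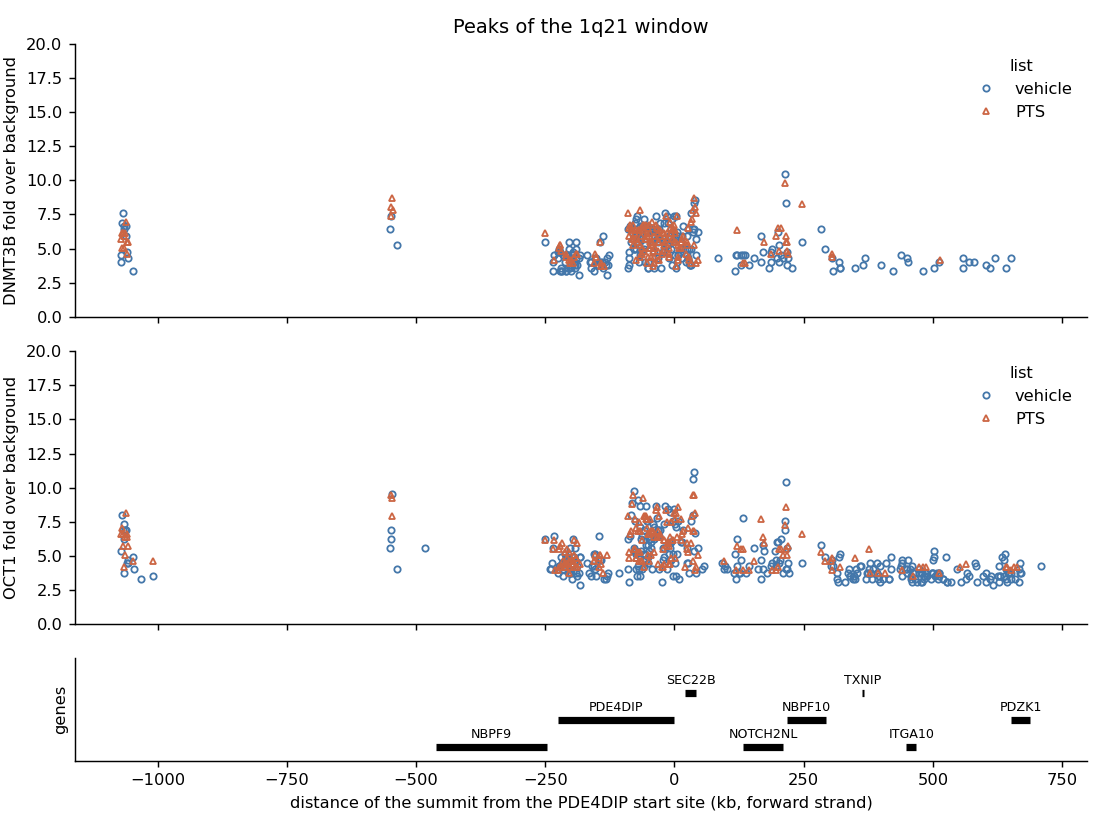
Fold over background (y axis) of each peak in the 1q21 window against the distance of its summit from the PDE4DIP start site in kb (x axis), for DNMT3B (top) and OCT1 (middle), with vehicle as circles, PTS as triangles and genes below. Peaks gather over PDE4DIP and SEC22B, with median folds of 5.67 to 6.38 near the start site and 4.05 to 4.62 at the far end.

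NOTCH2NL had 23 and 9 DNMT3B peaks and 34 and 17 OCT1 peaks, for vehicle and PTS. Its DNMT3B peak past the threshold in an enhancer state, chr1:145197270-145197525, lay 11588 bp outside the annotated gene. The pileup there was 18 reads with vehicle and 25.6 scaled reads with PTS, a ratio of 1.42 with an exact 95% interval of 0.758 to 2.73. OCT1 at the same place had folds of 6.22 with vehicle and 5.72 with PTS. At chr1:145276919-145277811 DNMT3B had 25 and 26.5 reads (ratio 1.06, 0.599 to 1.89), and at chr1:145281362-145281801 it had 18 and 26.5 (1.47, 0.790 to 2.81). All 3 NOTCH2NL regions past the threshold with a peak in both lists were higher with PTS for DNMT3B, and each interval included 1. Below the threshold, a NOTCH2NL peak in an enhancer state, chr1:145213041-145213296, was lower with PTS (18 and 15.5 reads, ratio 0.862, 0.418 to 1.77). Another region past the threshold, chr1:145242632-145242957, had a fold of 5.95 with vehicle and no peak with PTS. OCT1 was higher with PTS at 3 of 8 NOTCH2NL regions.

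NBPF10 had its highest DNMT3B peaks with folds of 10.5 (chr1:145289025-145291078, vehicle) and 9.81 (PTS), and its highest OCT1 vehicle peak, at chr1:145291713-145292913, had a fold of 10.4. The DNMT3B vehicle peak ended 2293 bp outside the deposited NBPF10 gene, and its summit was inside a GENCODE intron shared with NOTCH2NLA. Only 2.80% and 1.25% of the NBPF10 body were under DNMT3B peaks and 3.07% and 1.77% under OCT1 peaks. The body of NBPF9 held 1 peak in each list, with folds of 5.48, 6.11, 6.22 and 6.16. In the DNMT3B PTS list, the peaks assigned to NBPF9 in enhancer states had folds of 7.85 and 8.72 and lay 83280 and 85308 bp away from it. Another strong peak assigned to NBPF9, chr1:144527591-144528830 with a fold of 8.07, was in no enhancer state. NBPF8 held no peak.

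A further group of strong peaks began at chr1:144005277-144006197 (DNMT3B PTS, fold 5.67), just inside the 1q21 window, and was assigned to FAM72D, a gene of another human-specific duplicated family. All of these peaks lay outside the gene, the farthest at 151542 bp. DNMT3B had 11 peaks there with vehicle (6 past the threshold, highest fold 7.62) and 12 with PTS (5 past it, 6.98). OCT1 had 15 with vehicle (6 past it, 8.001) and 13 with PTS (9 past it, 8.14). At 1p36, MST1L had 4 and 1 DNMT3B peaks (highest folds 6.19 and 4.37) and 16 and 6 OCT1 peaks (6.67 and 4.84). Peaks assigned to RNU1-1 and RNU1-2 reached folds of up to 6.001 over the 4 lists, and all lay outside these short genes.

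**Figure D3:**
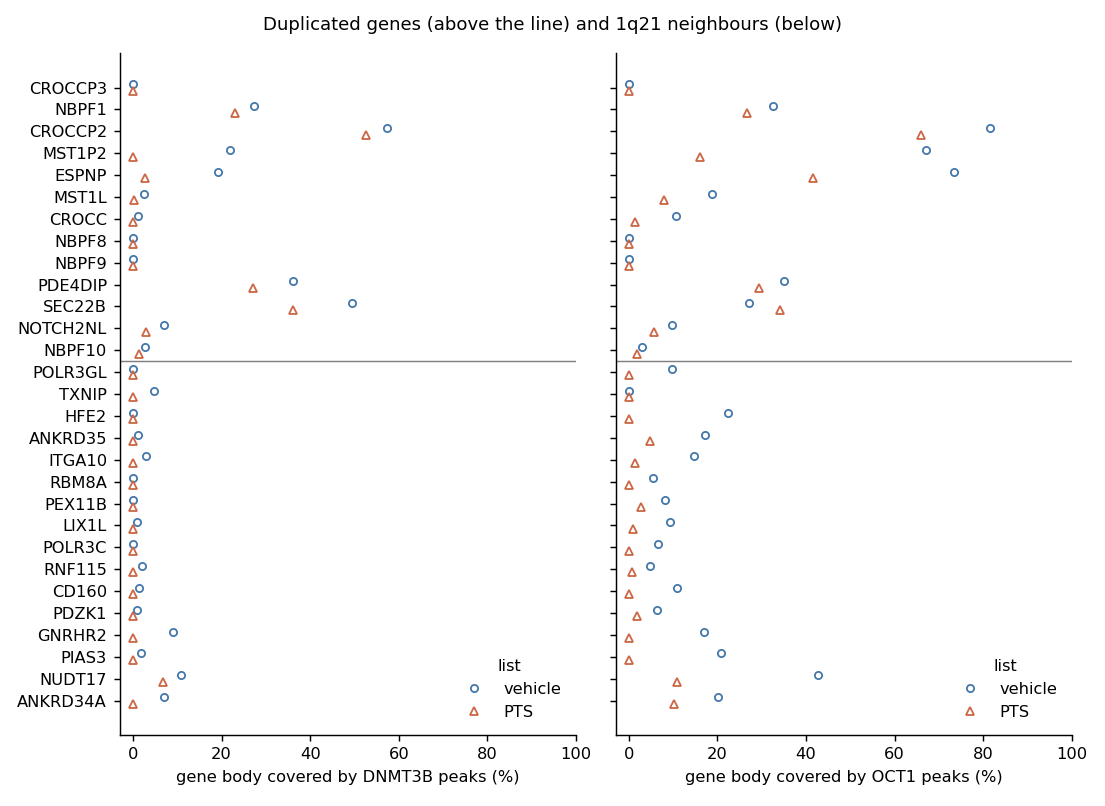
Share of each gene body covered by peaks (x axis, %) for DNMT3B (left) and OCT1 (right), with vehicle as circles and PTS as triangles; duplicated genes stand above the line and 1q21 neighbours below it. CROCCP2 has the most DNMT3B cover (57.3% and 52.5%) and NBPF10 little in any list (1.25% to 3.07%).

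The other genes of the windows are set beside the duplicated ones as a description. The windows were chosen where peaks stood close together, so contrasts in density and height follow in part from that choice. The 13 duplicated genes had 26.1 and 19.3 DNMT3B peaks per 100 kb (vehicle and PTS) and 28.4 and 24.0 OCT1 peaks. Of these peaks, 53 of 230, 55 of 170, 89 of 251 and 87 of 212 passed the threshold. The 16 neighbours in 1q21 include TXNIP, PDZK1 and ITGA10. They had 6.09 and 0.359 DNMT3B peaks per 100 kb and 30.8 and 4.302 OCT1 peaks. None of these 17, 1, 86 and 12 peaks passed. In the whole lists 7.57%, 24.6%, 2.37% and 9.11% passed, so none among so few peaks is near those shares. The 10 neighbours in 1p36 had 0 DNMT3B peaks and 4.47 (vehicle) and 0 (PTS) OCT1 peaks per 100 kb. With OCT1 vehicle, the 1q21 neighbours were thus as rich in peaks as the duplicated genes, but their highest fold was 5.33. The autosomes and chromosome X had 0.488, 0.117, 2.67 and 0.498 peaks per 100 kb.

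Merged over the lists within 200 bp, the members formed 451 sites. Of these, 96 had a peak in all 4 lists and 27 had one past the threshold in all 4. Another 244 were in 1 list only, 187 of them in OCT1 vehicle, 37 in DNMT3B vehicle, 19 in OCT1 PTS and 1 in DNMT3B PTS. Both antibodies had a peak at 180 sites, DNMT3B alone at 41 and OCT1 alone at 230. The OCT1 vehicle list held 82187 of the 118439 peaks of the series. The same counts were not made over all sites of the series, so whether the members differ from it was not tested. The lists with PTS were shorter throughout the series, and whether sites of a vehicle list only were lost with PTS was not tested.

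DNMT3B member peaks mostly stood beside OCT1 peaks. Within 200 bp of an OCT1 peak of the same treatment were 295 of 347 with vehicle (85.0%, 80.9 to 88.4) and 222 of 242 with PTS (91.7%, 87.6 to 94.6), against 55.5% and 66.8% of the whole lists. In the other direction 53.1% of OCT1 member peaks with vehicle and 63.5% with PTS were near a DNMT3B peak, against 11.02% and 18.3%. Peaks past the threshold were near an OCT1 peak in 76 of 77 (vehicle) and 73 of 75 cases (PTS), where the whole lists had 92.0% and 92.0%. Peaks in these windows stood close together (26.1 DNMT3B and 28.4 OCT1 vehicle peaks per 100 kb of duplicated genes), and the part of this density in the nearness was not tested.

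Chromatin states of HMEC differed between the members and the whole lists. Repetitive states were listed for 26.5% and 40.5% of DNMT3B members (vehicle and PTS), against 7.54% and 21.9% of the lists, and for 16.1% and 25.4% of OCT1 members against 1.55% and 6.52%. Transcribed states were listed for 51.6% and 47.9% of DNMT3B members against 26.2% and 23.3%, and for 47.4% and 45.5% of OCT1 members against 28.7% and 27.3%. Heterochromatin was rare in members (1.44% and 1.24% for DNMT3B, 7.78% and 2.17% for OCT1) and common in the lists (40.9% and 23.1%, 47.6% and 42.4%). Polycomb-repressed states were listed for 29.2% and 10.3% of DNMT3B members and 33.9% and 34.5% of OCT1 members at 1p36, and for 1.71% to 2.42% at 1q21. The states come from other cells, so they need not hold in MCF10CA1a.

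Enhancer states were listed for 25.4% and 22.7% of DNMT3B members and 22.8% and 23.2% of OCT1 members, against 17.3%, 14.3%, 16.7% and 16.1% of the whole lists. Of the 55 DNMT3B PTS members in enhancer states, 53 had a DNMT3B vehicle peak within 200 bp, and 21 had the higher pileup with PTS and 32 with vehicle. Each PTS peak was set against the highest vehicle pileup within 200 bp, so a broad vehicle peak could serve more than once. This choice favours vehicle in these counts and ratios. Of the 29 past the threshold, 14 were higher with PTS and 15 with vehicle, with ratios from 0.770 to 1.78 and a median of 0.986. They were assigned to PDE4DIP (17), FAM72D (4), MST1P2 (2), NBPF1 (2), NBPF9 (2), CROCCP2 (1) and NOTCH2NL (1). No interval of these ratios excluded 1.

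The treatments were compared by the ratio of pileups, PTS over vehicle, at merged regions with a peak in both lists and past the threshold in at least one of them. The labels describe each deposited list as enriched in one treatment, but its values contain no comparison between treatments. For DNMT3B the median ratio over 63 member regions was 0.946, with a range of 0.575 to 1.78, and 27 were higher with PTS and 36 with vehicle. The direction depended on the scaling of the PTS lists by the authors: in whole reads without it, 35 regions had more with PTS, 20 had more with vehicle and 8 were equal, with a median of 1.04. Over all 1007 regions of the series the median was 0.944 scaled and 1.03 in whole reads. For OCT1 the median over 125 member regions was 0.990, with a range of 0.552 to 1.92, beside 0.955 over 1580 regions. Medians at 1p36 were 0.876 (15 regions) for DNMT3B and 0.899 (38) for OCT1, and at 1q21 0.9497 (48) and 0.990 (87).

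DNMT3B was at least 1.5-fold higher with PTS at 3 of 63 regions and at least 1.5-fold lower at 2, where 1.09% and 2.78% of all regions were, and no exact interval excluded 1 (0.0993% above and 0.298% below in the series). The region of highest ratio, chr1:145010196-145010567 in PDE4DIP, went from 18 to 32.0 reads (1.78, 0.979 to 3.33), while OCT1 there had 31 and 29.7. The lowest, chr1:16955821-16956511 at CROCCP2, went from 27 to 15.5 reads (0.575, 0.294 to 1.09), and OCT1 there went from 39 to 27.7. An NBPF10 region, chr1:145323537-145323840, had 22 and 33.8 reads (1.54, 0.882 to 2.73), with OCT1 at 19 and 28.7.

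OCT1 was at least 1.5-fold higher with PTS at 8 of 125 regions and lower at 4, beside 3.8% and 6.14% of all regions. The interval lay above 1 at 2 regions and below 1 at 1, beside 0.633% and 0.759% of all regions. PDE4DIP held the highest ratio at chr1:145007449-145008030, from 17 to 32.7 reads (1.92, 1.04 to 3.68), where DNMT3B had 27 and 25.6. CROCCP2 held the next at chr1:16942854-16944181, from 21 to 37.6 reads (1.79, 1.02 to 3.21), with DNMT3B at 20 and 27.4. PDE4DIP also held the lowest at chr1:144996793-144997286, from 43 to 23.8 reads (0.552, 0.321 to 0.931), with DNMT3B at 20 and 22.8. With 125 regions compared, such intervals were not adjusted for their number.

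**Figure D4:**
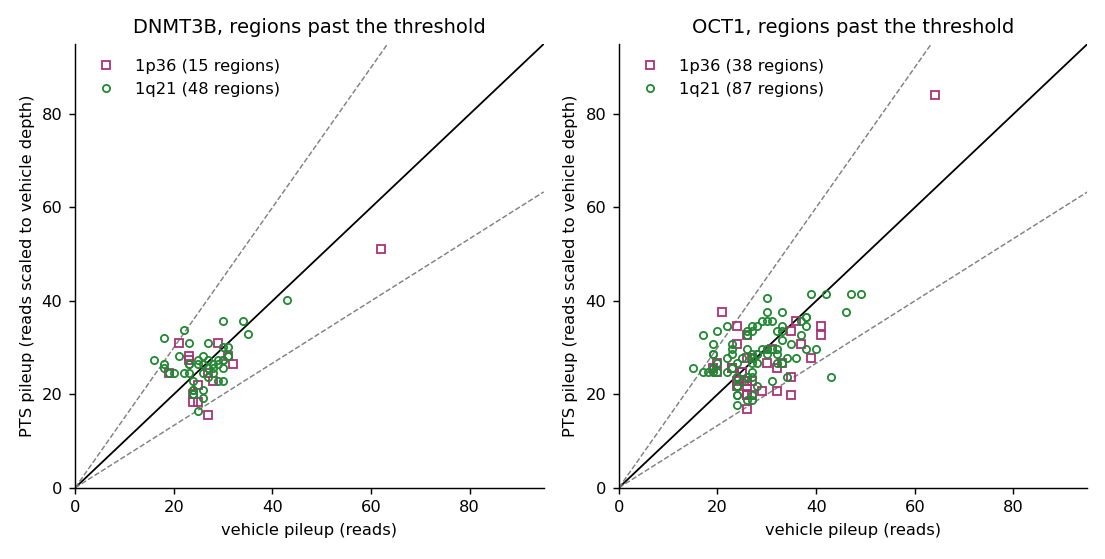
Pileup with PTS (y axis, reads scaled to vehicle depth) against pileup with vehicle (x axis, reads) at member regions past the threshold, for DNMT3B (left) and OCT1 (right), with squares for 1p36 and circles for 1q21. The solid line marks equal pileups and the dashed lines a 1.5-fold difference; the NBPF1 site stands apart at 62 and 51.1 reads for DNMT3B and 64 and 84.1 for OCT1.

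The antibodies did not move in one pattern, judged by scaled pileups. Each DNMT3B region was paired with the OCT1 region within 200 bp that had the highest vehicle fold, so an OCT1 region could serve more than once. This choice favours OCT1 ratios below 1, and the OCT1 regions with the highest ratios, 1.92 and 1.79, were in no pair. Among 60 pairs of regions with both ratios, both antibodies were higher with PTS at 12 and with vehicle at 21. DNMT3B was the higher with PTS and OCT1 with vehicle at 13, and the reverse held at 14. By gene, the median DNMT3B ratio was 0.947 over 39 PDE4DIP regions, 0.9132 over 7 NBPF1 regions and 0.837 over 4 CROCCP2 regions, and that of OCT1 was 1.02 over 65, 1.07 over 13 and 0.824 over 6. Regions past the threshold with no peak in the other treatment were few, 4 for DNMT3B (MST1L, PDE4DIP, NOTCH2NL and NBPF10) and 3 for OCT1 (LOC105376805, NBPF9 and NOTCH2NL), all with vehicle only. They were 4 of 67 and 3 of 128 member regions, where the series had 79 with vehicle only and 7 with PTS only of 1093 for DNMT3B, and 281 and 27 of 1888 for OCT1.

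Base composition differed between the windows. Median GC content of member peaks was 51.5% and 49.2% for DNMT3B and 52.2% and 52.2% for OCT1 at 1p36 (vehicle and PTS), and 44.9%, 44.1%, 48.7% and 46.5% at 1q21.

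The octamer element of OCT1 was searched as ATGCAAAT or ATGCTAAT on both strands. It was present in 2.09% (11 of 527) of OCT1 vehicle members and 3.41% (11 of 323) of OCT1 PTS members, beside 1.22% and 1.71% of the whole lists. In windows of chromosome 1 as long as the median member it was present in 4.44% and 5.16%. DNMT3B members held it at 5.19% and 2.89%. Per kb the members held 0.0401 and 0.0618 octamers for OCT1, while chromosome 1 held 0.136. A match is only a description of letters. Among member peaks past the threshold, the one with an octamer nearest to its summit lay in PDE4DIP, and the 120 bases at chr1:145016299-145016418 carry it in capitals, 28 bp from the OCT1 vehicle summit. The element is read on either strand.
octamer member: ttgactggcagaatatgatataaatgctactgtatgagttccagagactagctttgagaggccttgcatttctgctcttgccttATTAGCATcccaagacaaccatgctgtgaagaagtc

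None of the 10 U1 genes of the windows was overlapped by a peak of any list or had one within 200 bp. Within 500 bp there was 1 in DNMT3B vehicle, 2 in OCT1 vehicle and none in the PTS lists. The nearest OCT1 vehicle peaks were 292 bp from RNVU1-6 (fold 4.22) and 448 bp from RNU1-1 (fold 4.67). RNU1-1, RNU1-2, RNU1-3 and RNU1-4 are identical over 164 bases, and how reads that match several places were treated is not given in the sources used here. The 300 bases before RNU1-1 (chr1:16840781-16841080, reverse strand) are shown as the place where OCT1 is known to act at such genes; 0 of 10 genes had an octamer of these letters in this window.
RNU1-1 upstream: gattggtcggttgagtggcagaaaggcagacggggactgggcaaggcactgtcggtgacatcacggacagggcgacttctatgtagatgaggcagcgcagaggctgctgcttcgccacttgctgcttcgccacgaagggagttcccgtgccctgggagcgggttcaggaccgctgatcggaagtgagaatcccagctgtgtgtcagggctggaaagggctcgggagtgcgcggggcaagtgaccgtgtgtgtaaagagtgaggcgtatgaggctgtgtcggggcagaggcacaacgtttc

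Near-identical copies were found more often for 1p36 than for 1q21 members. A copy was a stretch elsewhere in hg19 that matched 80% or more of the peak at an identity of 90% or above. Loci that are separate only on GRCh38 could not be found as copies. The hg19 intervals of PDE4DIP, SEC22B and NOTCH2NL, which receive several such loci, held 73.3% to 76.2% of the 1q21 peaks past the threshold. The lower share at 1q21 thus need not mean that its peaks are more unique. Of the 1p36 peaks past the threshold, 13 of 16 and 9 of 12 (DNMT3B) and 34 of 43 and 28 of 37 (OCT1) had one. At 1q21 the numbers were 7 of 61, 9 of 63, 20 of 88 and 14 of 90. In the rest of the autosomes and chromosome X the shares were 46.5%, 49.4%, 36.04% and 49.7%. A peak of the same list lay at a copy for 2 of 13 and 1 of 9 (DNMT3B) and 11 of 34 and 4 of 28 (OCT1) of the 1p36 peaks with copies, and for 2 of 7, 1 of 9, 7 of 20 and 2 of 14 of those at 1q21. Counted by copy, 0.699% to 6.70% held one, where a few peaks have many copies. The NBPF1 site had 60 copies, of which 4, 0, 2 and 2 held a peak, the highest with folds of 6.43, none, 5.78 and 5.28. At the MST1 copy of the MST1P2 site, OCT1 vehicle had a fold of 3.78 against 8.45.

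**Figure D5:**
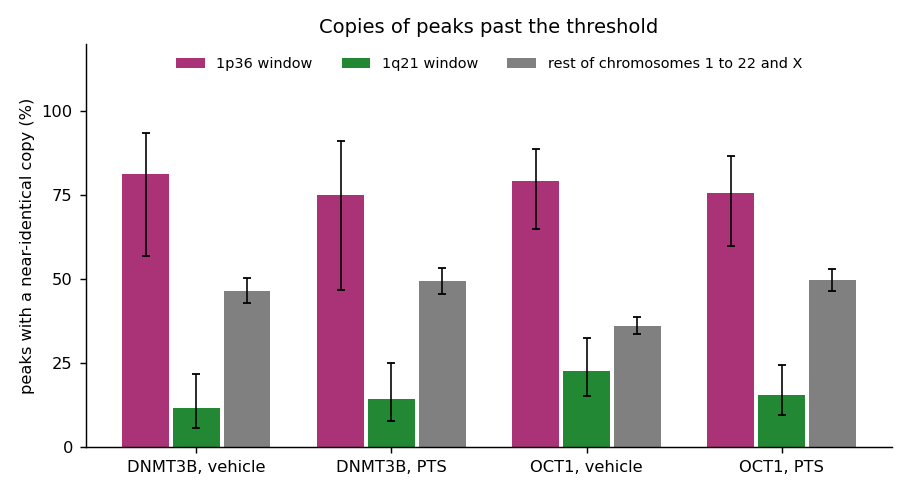
Share of peaks past the threshold with a near-identical copy elsewhere in hg19 (y axis, %) in each list, for the 1p36 window, the 1q21 window and the rest of the autosomes and chromosome X; bars are shares and whiskers Wilson 95% intervals. In every list the 1p36 bar is the tallest and the 1q21 bar the lowest. Copies were sought in hg19 only, where several loci of GRCh38 fall on the same 1q21 interval.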

How the data were processed

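ChIP-seq of DNMT3B and OCT1 was analysed from 4 peak lists of MCF10CA1a cells, 1 for each antibody and treatment, each pooling 3 replicates. The input libraries were not analysed here. The authors called peaks with MACS2, extending fragments to 200 bp, on hg19 (GRCh37) alignments from BWA. Beforehand they had removed duplicates, poor reads and, with cutadapt, adapters. The authors state that pooled inputs served as the control in peak calling. The peak names state that no local background was used, and each deposited list had a single background value. Versions are not given in the sources used here. Genes were assigned by the authors with ChIPseeker and chromatin states with the ChromHMM track of HMEC. The deposited pileup is the signal (coverage) of pooled fragments at the summit, scaled by the authors in the PTS lists so that 1 read equals 0.9131 (DNMT3B) or 0.9896 (OCT1). The deposited fold is the ratio (pileup + 1)/(background + 1). Deposited too were −log10 p-values from MACS2, and P-value and Q-value columns that are a score derived from them.

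The members, gene lists and tests were chosen with earlier results of these data known. Each peak was counted once, and every state listed for it was counted. Peaks were called near at a gap of at most 200 bp. Shares have Wilson intervals, and pileup ratios have exact intervals that treat reads as counts, at 95%. Named were, by rule, the genes that define the windows, the 5 genes with the highest member fold in each list and window, the listed family genes with a member past the threshold, and the regions with the highest and lowest pileup ratios. Gene bodies came from the deposited annotation or, for genes absent from it such as SEC22B, from GENCODE 44 on GRCh37. Exons, introns and U1 genes also came from GENCODE 44. The number of loci came from a RefSeq table of GRCh38, and copies from minimap2 2.31-r1302, with bases aligned by edlib 1.3.9. Scripts ran in Python 3.11.15 with numpy 2.4.6, pandas 2.3.3, scipy 1.17.1, pysam 0.24.0 and matplotlib 3.10.9, and the functions were tested on simulated data. Transfer RNA genes were not analysed here, and the sequences at some summits are not reported here. The alternatives tried are given in the closing section.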

Additional observations from a re-analysis of the deposited data

How the results depend on the processing

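No paired analysis was possible because the deposited lists pool the replicates and their columns carry no replicate numbers, and for the same reason no replicate could be left out. Of 84 alternative values, 44 stayed within set bounds and 40 moved. The bounds were the Wilson interval for shares and a 1.5-fold difference for counts. For median PTS over vehicle ratios they were the median limits of the single-region intervals. Those limits are wide for a median over many regions, so that the medians stayed inside them shows little. The DNMT3B median, 0.946, lay on the other side of 1 in whole reads (1.04), over all regions with a peak in both lists (1.004) and with 1 kb merging (1.02). That of OCT1 was between 0.899 and 1. Counting lines of the lists in place of peaks gave 537 DNMT3B vehicle and 370 DNMT3B PTS members. At a deposited P-value under 0.01, 11 and 15 DNMT3B members (vehicle and PTS) and 43 and 41 OCT1 members passed. With a gap of 1 kb, 94.2% (vehicle) and 97.1% (PTS) of DNMT3B members were near an OCT1 peak. Over peaks past the threshold only, repetitive states were listed for 54.5% and 53.3% of DNMT3B and 43.5% and 40.9% of OCT1 members, and transcribed states for 44.2% of DNMT3B vehicle and 40.5% of OCT1 vehicle members. With the first listed state only, repetitive states made up 21.04%, 32.2%, 12.3% and 20.1%, and transcribed states 45.0% (DNMT3B vehicle) and 41.3% (DNMT3B PTS). At 95% identity the share of members with a copy was 22.2%, 18.2%, 21.6% and 25.1%, and over peaks past the threshold it was 26.0% for DNMT3B vehicle and 41.2% for OCT1 vehicle. Within 200 bp of a U1 gene there were 0 DNMT3B vehicle and 0 OCT1 vehicle cases, and within 1 kb 2 DNMT3B vehicle and 1 OCT1 PTS. ATGCAAAT alone was present in 2.88% and 0.826% of DNMT3B and 0.949% and 1.86% of OCT1 members. The cause was not tested, except that a wider gap, a stricter threshold and fewer motifs change such shares by construction. Counts of ratios of at least 1.5-fold also moved, to 6 (whole reads) or 1 (1 kb merging) higher and 1 or 1 lower for DNMT3B, and to 2 higher and 0 lower for OCT1 at 1 kb. Depth limited single ratios, since median pileups were 18 to 21.9 reads.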

Other observations

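NBPF genes outside the windows had at most 8 peaks in any list. NBPF18P had 3 and 2 DNMT3B and 8 and 0 OCT1 peaks (vehicle and PTS), none past the threshold. NBPF13P had 2 and 0 DNMT3B and 5 and 1 OCT1 peaks, none past it either. NBPF15 had 3 and 3 DNMT3B peaks (vehicle and PTS), with highest folds of 6.67 and 6.33, and 4 and 2 OCT1 peaks, with highest folds of 7.11 and 4.62. Of these NBPF15 peaks, 1 and 1 for DNMT3B and 2 and 0 for OCT1 passed the threshold. NBPF12 had 1 DNMT3B peak with vehicle (fold 4.76) and none with PTS, and NBPF3 had only 3 OCT1 vehicle peaks (highest fold 4.22). NOTCH2, the parent gene of NOTCH2NL, had 1 and 0 DNMT3B peaks and 2 and 1 OCT1 peaks, with a highest fold of 5.06. MST1 was assigned no peak in any list, so the OCT1 vehicle peak at the MST1 copy was not assigned to it.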
